A study of Drosophila melanogaster with 8 samples.

Results

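Tubulin genes and genes for proteins that bind axonal microtubules were examined in the ventral nerve cord of wit mutant larvae of Drosophila melanogaster. The set was given as 10 symbols: the alpha-tubulins alphaTub84B and alphaTub84D, the beta-tubulins betaTub56D, betaTub60D and betaTub97EF, and futsch, tau, stai, Map205 and Ank2. Symbols were matched to the FlyBase identifiers of the count tables, which hold 14175 genes, and 8 of the 10 had a match. All 8 passed the filter on low counts. For betaTub56D and betaTub60D the identifier in the name table matched none in the count tables, so both genes are not analysed here. They may be among the genes left without a symbol, since 13948 of the 14175 identifiers had one.

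Microtubules are polymers of alpha- and beta-tubulin dimers that run along axons and carry cargo between the cell body and the synapse. Microtubule-associated proteins stabilise, bundle or anchor the polymer, and stathmins bind free tubulin dimers. At the fly neuromuscular junction, BMP ligands from muscle act through the type II receptor Wishful thinking on the motor neuron, and this signal is known to promote growth of the synaptic terminal, where Futsch-bound microtubules and the Ankyrin 2 and spectrin skeleton support the boutons.

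All larvae were wandering females of the last larval instar in a w1118 background. Mutants carried witA12, st1 over witB11, st1, and controls had that witA12, st1 chromosome with a wild-type partner, so every animal had at least 1 mutant wit allele. Each of the 4 libraries per genotype came from 25 pooled nerve cords with the brain lobes removed, and the mutation was present in all cells of the animal. The question put by the design is which nerve cord transcripts differ when the BMP receptor gene is mutant on both chromosomes.

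Library totals ran from 20923717 to 32740480 estimated counts. Levels are in CPM, that is, counts relative to library totals scaled by the TMM method, and are given with their SD (n = 4). Every log2 fold change sets mutants over controls, so a negative value is a lower level in mutants. Mutant library 1 lay apart from the other mutants on the second principal component of all genes, which held 14.3% of the variance. The wit transcript was at 89.8, 86.6, 91.0 and 94.9 CPM in control libraries 1 to 4 and at 82.1, 85.2, 89.1 and 91.0 CPM in mutant libraries 1 to 4. The ranges overlapped (log2 fold change -0.06, edgeR adjusted p = 0.371), and since the labels do not give the lesions, the level does not check the genotype.

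Among the 8 genes, 3 fell in wit mutants and 0 rose by edgeR's quasi-likelihood test at an adjusted p under 0.05. Over all 9176 genes tested 8.66% were called lower and 6.12% higher. The genes that fell were stai, futsch and Ank2, which encode a stathmin, a MAP1B-type protein and an ankyrin, and their levels were 1.40-, 1.46- and 1.32-fold lower. With DESeq2's Wald test 4 fell and 0 rose, where 904 of all genes were called lower and 579 higher. With limma-voom 3 fell and 1 rose, where 1122 of all genes were called lower and 989 higher. At an unadjusted p under 0.05 edgeR had 4 lower and 1 higher, and the share of all genes at that threshold is not given here. The 2 groups of libraries did not overlap for 5 of the 8 genes, 4 lower and 1 higher in mutants, against 20.5% of all genes tested, 11.7% lower and 8.82% higher. The median log2 fold change of the 8 genes was -0.08, and that of all genes was 0.01. The 5 genes that missed the threshold had log2 fold changes between -0.12 and 0.14. In pooled tissue, fewer cells of a type and less RNA per cell cannot be told apart.

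**Figure D1:**
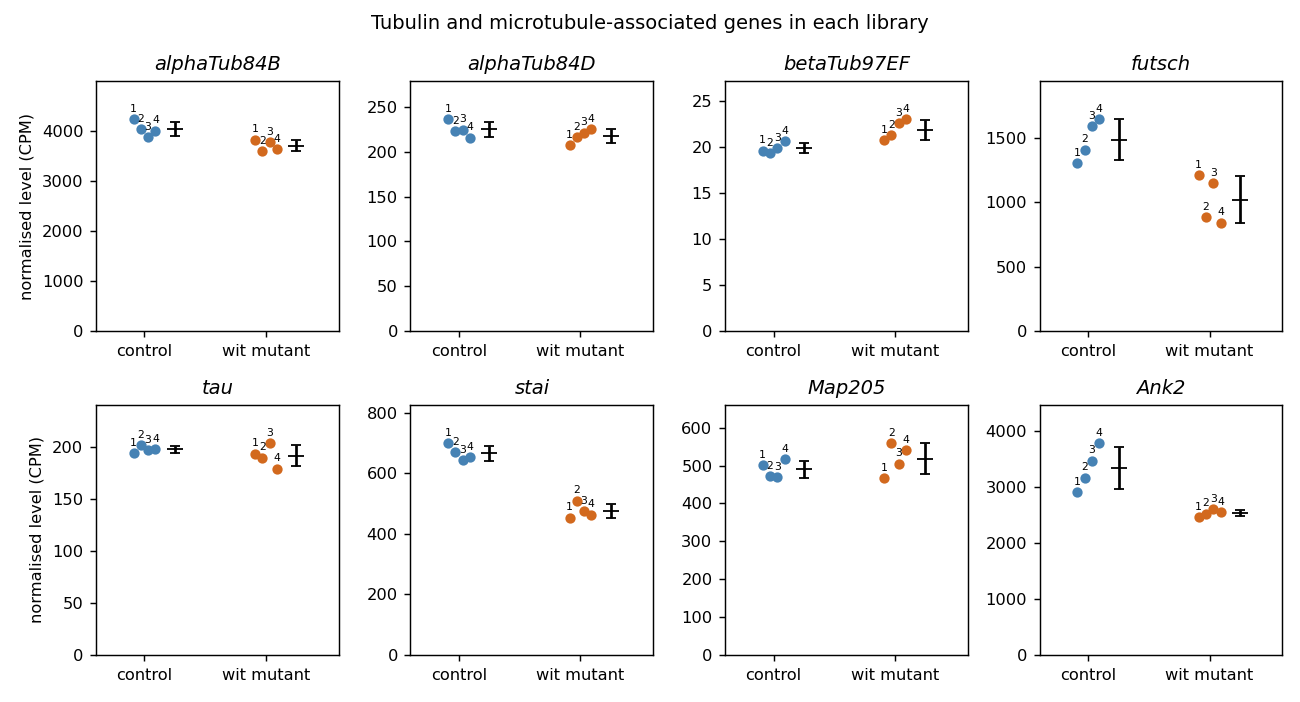
Normalised level in CPM of the 8 genes, with 1 panel per gene and the vertical axis starting at 0. Points are single libraries with their replicate numbers, and the black mark and bar are the mean and SD of 4 libraries. For stai, futsch, Ank2 and alphaTub84B every mutant library lies below every control library, and for betaTub97EF every one lies above.

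The gene stai (FBgn0266521, chromosome 2L, 6100377 to 6124653 in Ensembl release 115 of assembly BDGP6) encodes the fly stathmin, which binds tubulin dimers and is known to be needed for stable neuromuscular junctions. Control libraries 1 to 4 held 700.4, 669, 644 and 654 CPM of stai, and mutant libraries 1 to 4 held 453, 509.6, 476 and 464 CPM. All 4 mutants lay below all 4 controls, with a wide gap between the lowest control and the highest mutant. The mean went from 667 ± 24.7 to 476 ± 24.5 CPM (SD, n = 4 each), a log2 fold change of -0.49 (SE 0.05, 95% interval -0.59 to -0.39, edgeR adjusted p = 2.73e-05). Leaving out any 1 library kept the log2 fold change between -0.52 and -0.46.

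The gene futsch (FBgn0259108, chromosome X, 1409069 to 1453686) encodes the fly relative of MAP1B, a microtubule-binding protein of axons and synaptic boutons. In controls 1 to 4 it was at 1303, 1409, 1589.8 and 1645 CPM, and in mutants 1 to 4 at 1210.5, 883, 1148 and 843 CPM. The groups did not overlap, but the highest mutant, library 1, was close to the lowest control, library 1, and mutants 2 and 4 lay well below mutants 1 and 3. The mean was 1487 ± 158 CPM in controls and 1021 ± 185 CPM in mutants (log2 fold change -0.54, SE 0.14, 95% interval -0.85 to -0.23, edgeR adjusted p = 0.0332).

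That call on futsch depended on single libraries. It was lost without control library 2, 3 or 4 (adjusted p = 0.0638, 0.0873 and 0.0916) and without mutant library 2 or 4 (0.0780 and 0.0602), and also with no filter on low counts (0.0702). Over all alternatives the adjusted p ran from 0.00418 to 0.0954, and the log2 fold change was negative in each.

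Ank2 (FBgn0261788, chromosome 3L, 7655389 to 7718395) encodes an ankyrin that links membrane proteins to spectrin and, in its long forms, is known to organise microtubules in axons and boutons. Its level was 2908, 3163, 3466 and 3782 CPM in controls 1 to 4 and 2461, 2520.1, 2596 and 2544 CPM in mutants 1 to 4. Controls spread widely while mutants were close together, and all mutants were below all controls. The mean went from 3329.8 ± 378 to 2530.5 ± 56.0 CPM (log2 fold change -0.40, SE 0.07, 95% interval -0.55 to -0.24, edgeR adjusted p = 0.00361). The call held without any 1 library, with log2 fold changes from -0.46 to -0.33.

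The annotation places CG44195 on the same strand within Ank2, with 5874 exonic bases shared, so reads of the 2 genes may not be separated. CG44195 went from 63.6 ± 4.17 to 48.3 ± 5.21 CPM (log2 fold change -0.40, edgeR adjusted p = 0.00475). Gr2a, which shares 1186 exonic bases with futsch, reached at most 0.170 CPM in any library. How the 22 annotated transcripts of Ank2 and the 3 of futsch contribute cannot be read from values summed per gene.

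Ank2 and futsch have very long transcripts, with longest annotated forms of 42.1 and 22.3 kb, whereas that of stai is 2.98 kb. Levels of long transcripts differed between libraries of 1 genotype. For the 33 other tested genes with a longest transcript of 15 kb or more, the median log2 level relative to each gene's own mean was -0.08, 0.01, 0.08 and 0.15 in controls 1 to 4 and -0.10, -0.04, -0.03 and 0.00 in mutants 1 to 4. Control 1 was lowest and control 4 highest for these genes, for futsch and for Ank2. Of those 33 genes 4 fell (12.1%) and 1 rose, with a median log2 fold change of -0.06. Over all genes tested 8.66% were called lower and 6.12% higher. By longest transcript, 5.99% of genes under 2 kb were called lower and 9.35% at 2 to 5 kb. The share was 15.8% at 5 to 10 kb and 11.5% at 10 to 15 kb.

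When the trend of level with transcript length was taken out of each library, an alternative chosen after seeing the data, the log2 fold change of Ank2 was -0.25 (edgeR adjusted p = 0.000199) in place of -0.40, and that of futsch was -0.42 (adjusted p = 0.0655), which missed the threshold. The value of stai was -0.49 (adjusted p = 1.70e-05). Over all alternatives the adjusted p of stai ran from 4.46e-24 to 0.00125 and that of Ank2 from 1.60e-06 to 0.0169.

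**Figure D2:**
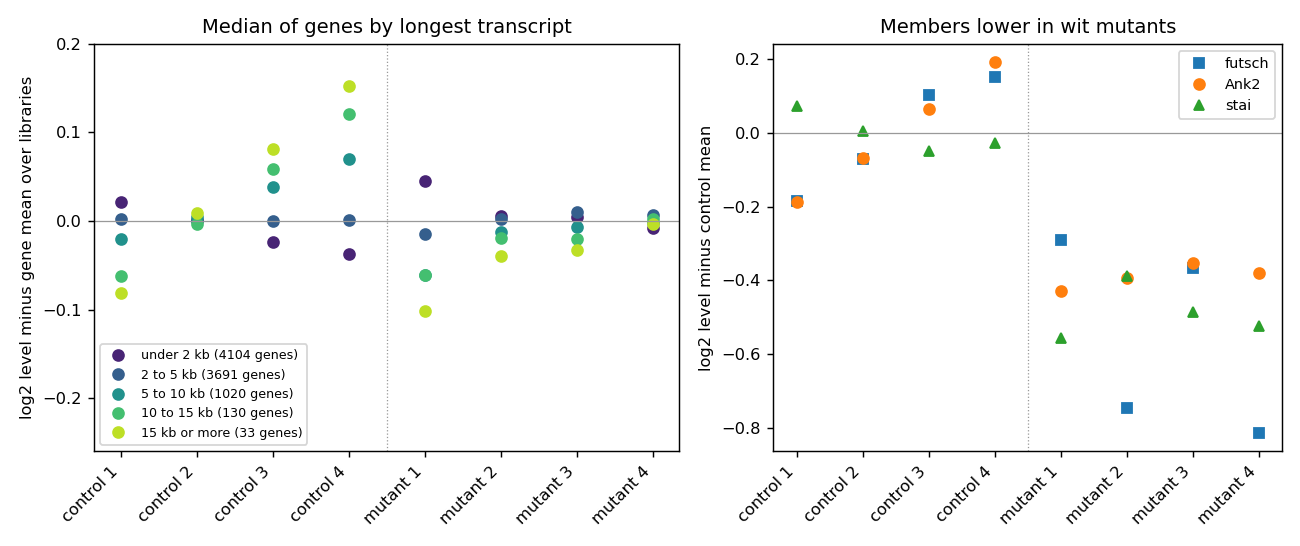
Left, median log2 level relative to each gene's mean over the 8 libraries, for genes grouped by their longest annotated transcript, without the 8 genes described here. Right, log2 level of futsch, Ank2 and stai relative to the control mean. The long-transcript classes, futsch and Ank2 are lowest in control 1 and highest in control 4 among controls, while stai is highest in control 1.

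Of the 3 matched tubulin genes of the set, 0 passed edgeR's test. At an unadjusted p under 0.05 there was 1 lower and 1 higher, DESeq2 called 1 lower and limma-voom 1 higher. Over all genes DESeq2 called 904 lower and limma-voom 989 higher. The most abundant, alphaTub84B (FBgn0003884, chromosome 3R, 7086599 to 7088839), encodes the main alpha-tubulin of most fly cells. Controls 1 to 4 held 4236, 4035, 3878 and 4010 CPM of alphaTub84B and mutants 1 to 4 held 3826, 3595, 3778 and 3642 CPM. The ranges did not overlap, though mutant 1 was close to control 3. The mean went from 4039.8 ± 148 to 3710.4 ± 110 CPM (log2 fold change -0.12, SE 0.05, 95% interval -0.23 to -0.02, edgeR adjusted p = 0.103). The gene passed with DESeq2's Wald test (adjusted p = 0.00858) and with the length trend removed (0.0166), within a range of 0.00858 to 0.232 over all alternatives.

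The near-identical gene alphaTub84D (FBgn0003885, chromosome 3R, 7530753 to 7532732) was at 236, 223, 225 and 216 CPM in controls 1 to 4. In mutants 1 to 4 alphaTub84D was at 207, 217, 221 and 225 CPM, and the ranges overlapped (log2 fold change -0.05, edgeR adjusted p = 0.459). Because estimated counts divide reads between near-identical copies, the split between the 2 alpha-tubulins is uncertain. The alphaTub84D share of their joint counts was 5.27% ± 0.153 in controls and 5.54% ± 0.297 in mutants (n = 4 each), a difference that did not pass a two-sided exact permutation test (p = 0.171, where the smallest possible is 0.0286). Summed into 1 feature, both had a log2 fold change of -0.12 (SE 0.05, edgeR adjusted p = 0.111).

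The beta-tubulin gene betaTub97EF (FBgn0003890, chromosome 3R, 27967008 to 27988384) was the least abundant of the set. It was at 19.6, 19.4, 19.9 and 20.6 CPM in controls 1 to 4 and at 20.7, 21.3, 22.6 and 23.0 CPM in mutants 1 to 4. All mutants were above all controls, but the highest control and the lowest mutant nearly touched. The mean was 19.9 ± 0.557 CPM in controls and 21.9 ± 1.08 CPM in mutants (log2 fold change 0.14, SE 0.05, 95% interval 0.03 to 0.25, edgeR adjusted p = 0.0749). It passed without mutant library 1 (adjusted p = 0.0302), with limma-voom (0.0282) and with totals not scaled by TMM (0.0353), within a range of 0.0282 to 0.182.

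The remaining microtubule-associated genes, tau and Map205, did not pass. The product of tau (FBgn0266579, chromosome 3R, 27639886 to 27656996) binds axonal microtubules. Controls 1 to 4 held 194, 202, 197 and 198 CPM of tau and mutants 1 to 4 held 194, 190.0, 204 and 179 CPM. The mutant range enclosed the control range, and the log2 fold change was -0.05 (95% interval -0.13 to 0.04, edgeR adjusted p = 0.494).

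Map205 (FBgn0002645, chromosome 3R, 32055279 to 32068441) encodes a microtubule-binding protein known to hold the mitotic kinase Polo on microtubules. It was at 501, 471, 469.5 and 516 CPM in controls 1 to 4 and at 467, 559.7, 505 and 540.5 CPM in mutants 1 to 4, with overlapping ranges. Its log2 fold change was 0.08 (95% interval -0.04 to 0.21, edgeR adjusted p = 0.369). The intervals of tau and Map205 lie within 0.21 of 0 on the log2 scale, and none of the alternatives called either gene.

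Levels of different genes can be compared only per length. Per kb of the longest annotated transcript, alphaTub84B was highest in controls at 2306 ± 84.4 CPM per kb, followed by stai at 224 ± 8.29 and alphaTub84D at 114 ± 4.29 CPM per kb. Map205, Ank2 and futsch followed at 84.1 ± 3.95, 79.0 ± 8.97 and 66.8 ± 7.12 CPM per kb, and the ranges of neighbours in this order overlapped. The order ended with tau at 52.7 ± 0.904 and betaTub97EF at 11.7 ± 0.327 CPM per kb. In mutants, stai was at 160 ± 8.22, Ank2 at 60.1 ± 1.33 and futsch at 45.9 ± 8.32 CPM per kb. This order rests on the length chosen. Annotated transcripts of Ank2 run from 2.26 to 42.1 kb and those of tau from 1.34 to 3.75 kb, and per kb of the shortest one Ank2 would stand at 1473, tau at 147 and alphaTub84D at 114 CPM per kb, which moves Ank2 from place 5 to 2, tau from 7 to 4 and alphaTub84D from 3 to 6.

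**Figure D3:**
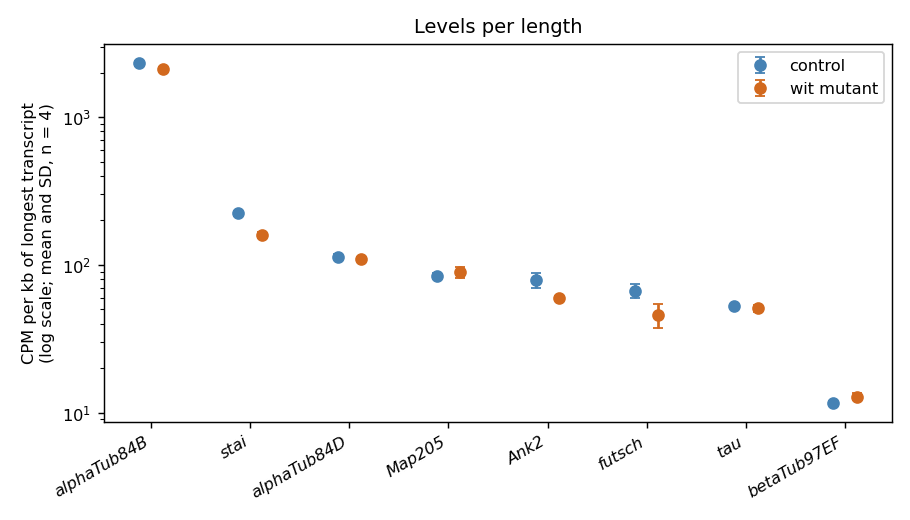
Level of the 8 genes in CPM per kb of the longest annotated transcript, on a log axis, in order of the control mean. Points and bars are means and SD of 4 libraries per genotype. In controls alphaTub84B stands at 2306 CPM per kb and betaTub97EF at 11.7, with the other genes between 52.7 and 224.

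Of the 8 genes 6 lie on chromosome 3, of which the genotypes differ in 1 whole copy. The 2 others, stai on 2L and futsch on X, were both among the 3 genes that fell. Over all genes tested 15.2% were called on chromosome 3 and 14.4% elsewhere.

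Other genes of microtubules and the spectrin skeleton were taken from 8 lists with 56 symbols, of which 51 genes were tested. Of these 3 rose and 3 fell, which is 5.88% in each direction against 6.12% and 8.66% of all genes. Their median log2 fold change was -0.01. The 12 genes of lattice-binding and plus-end proteins, among them Eb1, msps, shot and Patronin, had 0 calls in edgeR and DESeq2 and 1 in limma-voom (1 in edgeR at an unadjusted p under 0.05), and log2 fold changes ran from -0.06 to 0.15. In that list Jupiter, which encodes a microtubule-binding protein, had the smallest p (log2 fold change 0.15, adjusted p = 0.0946; adjusted p = 0.0130 without mutant library 1, with 0.0130 to 0.242 over all alternatives). The 5 tested genes for severing and depolymerising proteins and the 6 of the gamma-tubulin complex had 0 calls with edgeR, DESeq2 and limma-voom (2 and 1 in edgeR at an unadjusted p under 0.05), and the smallest p belonged to the katanin gene Kat60 (log2 fold change 0.08, adjusted p = 0.104) and to Grip84 (log2 fold change -0.09, adjusted p = 0.139).

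**Figure D4:**
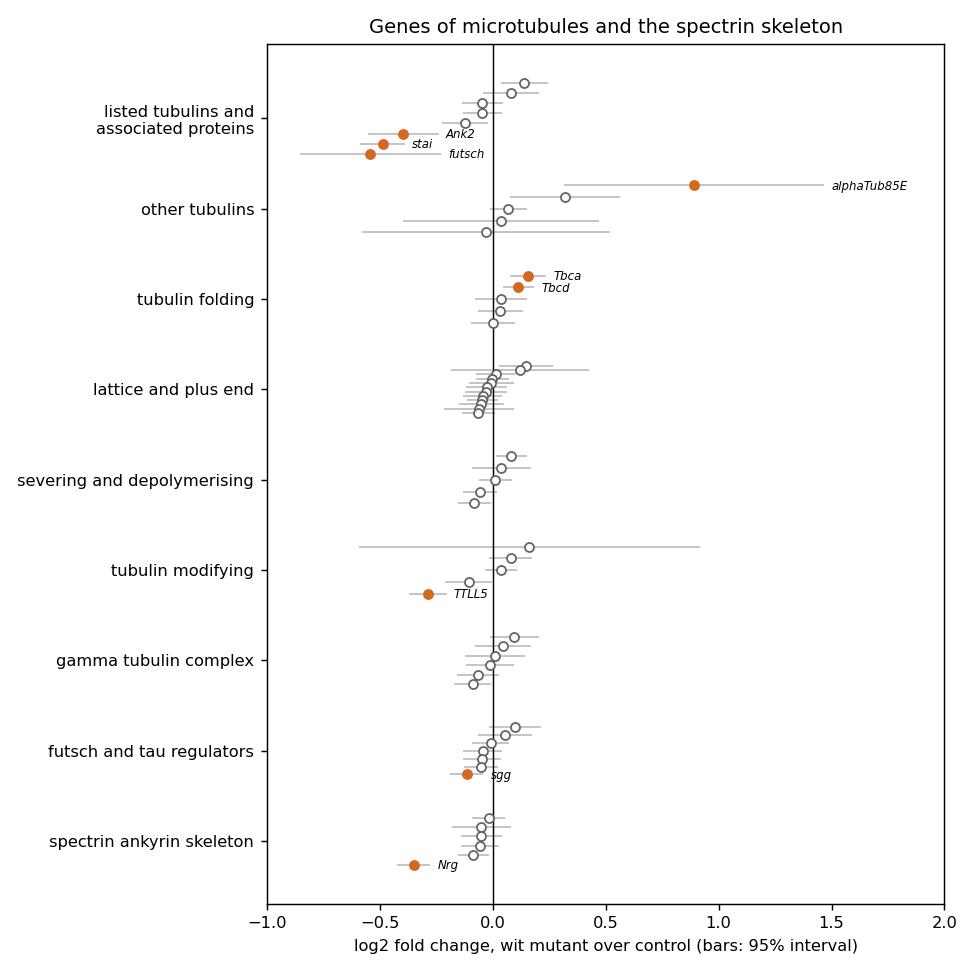
Log2 fold change, wit mutant over control, with 95% intervals from edgeR, for the 8 genes in the top row and for the tested genes of the 8 other lists below. Filled points passed the test and are named. The calls lie between -0.54 for futsch and 0.89 for alphaTub85E, and most intervals of the other lists cross 0 or end near it.

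Tubulin folding cofactors and a further alpha-tubulin were the list genes that rose. Tbca, whose product holds beta-tubulin during folding, was at 71.4, 66.6, 65.1 and 68.3 CPM in controls 1 to 4 and at 76.7, 76.4, 74.2 and 75.1 CPM in mutants 1 to 4 without overlap (log2 fold change 0.16, SE 0.04, edgeR adjusted p = 0.0155). Tbcd, which acts in assembling the dimer, went from 69.0 ± 0.698 to 74.7 ± 1.80 CPM (0.11, adjusted p = 0.0348). The other 3 cofactor genes had log2 fold changes from 0.00 to 0.04. The call on Tbca was lost without control library 2 or 3 (adjusted p = 0.0572 and 0.0591, with 0.00432 to 0.0591 over all alternatives), and that on Tbcd without any 1 library other than mutant 1 (0.0546 to 0.101, against 0.0110 at the lowest).

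The alpha-tubulin gene alphaTub85E, known from support cells of fly sensory organs and from testis, was at 4.16, 3.38, 3.07 and 3.70 CPM in controls 1 to 4 and at 3.32, 8.32, 6.69 and 8.06 CPM in mutants 1 to 4. Mutant 1 lay within the control range and the other 3 mutants lay above it (log2 fold change 0.89, SE 0.25, edgeR adjusted p = 0.0470). Leaving out mutant 1 gave an adjusted p of 3.50e-05, and leaving out any other library ended the call, with 0.0695 to 0.133.

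The list genes that fell act on tubulin, on microtubule-binding proteins or on ankyrin. TTLL5, a tubulin-modifying enzyme of the tubulin tyrosine ligase-like family, was at 83.0, 78.5, 82.4 and 78.6 CPM in controls 1 to 4 and at 65.1, 69.5, 65.7 and 63.7 CPM in mutants 1 to 4, without overlap (log2 fold change -0.29, SE 0.04, edgeR adjusted p = 0.000404). The neuroglian gene Nrg, whose cell adhesion protein binds Ankyrin 2, had a log2 fold change of -0.35 (SE 0.03, edgeR adjusted p = 3.43e-05). The spectrin genes alpha-Spec and beta-Spec had -0.05 and -0.06, and Ank, the other ankyrin gene, had -0.02. In the same list kst had -0.05, and hts had -0.085 without overlap of the groups (edgeR adjusted p = 0.0943). All 6 genes of this list had a negative log2 fold change. DESeq2 called 2 of them lower, and edgeR and limma-voom 1 each. The kinase gene sgg, which encodes the fly GSK3 that phosphorylates microtubule-associated proteins, went from 437 ± 7.86 to 404 ± 8.80 CPM (-0.11, adjusted p = 0.0396). The calls on TTLL5 and Nrg held in every alternative, while that on sgg was lost without control library 2, 3 or 4 or any of mutant libraries 2, 3 and 4 (adjusted p 0.0663 to 0.115) and with unscaled totals (0.162).

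The genes nearest to each called gene in profile were ranked by the root mean square difference of log2 CPM, centred over the 8 libraries. For stai they were Actbeta (0.04), uzip (0.05) and beat-VI (0.06). Those of futsch were Trhn (0.07), Treh (0.07) and Atf3 (0.09), and those of Ank2 were CG15465, CG9119 and apolpp (each 0.05). The 8 libraries are the same for all of these genes, and their genotype difference is part of the likeness.

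Part of the neuronal and glial markers were lower in mutants, where 8.66% of all genes tested were called lower. Of 6 neuronal markers 3 fell and 0 rose, all 6 with a log2 fold change between -0.22 and -0.11, and their summed level was 4886 to 5078 CPM in controls and 4248 to 4658 CPM in mutants. Among them elav, a general neuronal marker, went from 1156 ± 8.44 to 1074 ± 40.5 CPM (edgeR adjusted p = 0.0918). DESeq2 called 5 of the 6 neuronal markers lower and limma-voom 6. Of 8 glial markers 5 fell, with sums of 1939.6 to 1986 CPM against 1257 to 1656 CPM. These 5 were Gs2, Gat, wrapper, Eaat1 and Nrx-IV, with log2 fold changes of -0.995, -0.65, -0.38, -0.21 and -0.16. Gs2 went from 568 ± 7.31 to 285 ± 99.0 CPM (edgeR adjusted p = 0.0355). Gat went from 323 ± 8.47 to 207 ± 48.7 CPM (edgeR adjusted p = 0.0402). Both varied more among mutants than among controls. The markers repo, moody and alrm had -0.07, -0.06 and -0.10 without passing. Of 11 markers of neuroblasts and dividing cells 1 fell, with sums of 584 to 629 CPM against 552 to 633 CPM. All 11 had a negative log2 fold change, between -0.21 and -0.02. DESeq2 called 2 of them lower and limma-voom 4. Over all genes DESeq2 called 904 lower and limma-voom 1122. The part of these shifts in the values of stai, futsch and Ank2 was not tested.

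Markers of tissue around the nerve cord were also measured, where 8.66% of all genes tested were called lower and 6.12% higher. Of 4 tested hemocyte markers 3 fell (sums of 194 to 212 CPM in controls and 82.4 to 144 CPM in mutants over 7 matched markers). Most of the sum was the collagen genes vkg and Col4a1, at 86.1 and 102 CPM in controls. PPO2 also fell, from 9.92 ± 3.12 to 4.66 ± 1.30 CPM (log2 fold change -1.10, edgeR adjusted p = 0.0419). Hml was at 1.94 CPM in controls and did not pass (log2 fold change -0.425, edgeR adjusted p = 0.378). NimC1, He and Sr-CI, at 0.0423, 0.197 and 0.283 CPM in controls, were not tested. Muscle markers summed to 60.5 to 66.1 CPM and 66.0 to 74.9 CPM, with 1 of 6 lower and Mhc at 0.520 CPM in controls. Of these 6, 4 had a positive log2 fold change and 2 a negative one, with a median of 0.20. For trachea 1 of 3 rose (81.5 to 91.4 against 86.5 to 112 CPM), and all 3 had log2 fold changes between 0.14 and 0.63. For imaginal discs 1 of 4 rose (51.3 to 58.3 against 50.4 to 57.9 CPM), with log2 fold changes from -0.23 to 0.18. Of 5 fat body markers 1 fell, apolpp, which went from 741 ± 60.5 to 583 ± 20.4 CPM and made up most of the sum (673 to 823 against 580.4 to 618 CPM). The other 4 had log2 fold changes from 0.17 to 1.20 without passing, and the list median was 0.44. In each list 0 matched markers were at 0 in all libraries, and the part of these levels in the results was not tested.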

How the data were processed

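Paired 42 bp reads came from a stranded mRNA kit, per the labels' protocols. The authors deposited 1 table of estimated counts per gene and library, for which the submitters' processing notes name kallisto 0.43.0, DESeq2 and the BDGP6 build. The step from transcripts to genes is not stated in these sources. Of the deposited estimated counts 31.36% had a fractional part of any size, and these were rounded. Names came from a table of FlyBase identifiers, which covered 13948 of the 14175 genes, and positions and transcript lengths from Ensembl release 115.

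Genes kept by filterByExpr (minimum count 10) were tested between genotypes, with no covariate, by the robust quasi-likelihood test of edgeR 4.0.16 (R 4.3.3) after TMM scaling, with two-sided p-values adjusted by Benjamini-Hochberg over all genes tested and standard errors from the F statistic. The labels call the libraries biological replicates and give 80 larvae per vial at 25 °C for all of them. They do not say more of how pools were raised. A count of 3 corresponded to 0.0926 to 0.142 CPM. Alternatives were DESeq2 1.42.0, limma 3.58.1 (voom with sample quality weights), other scalings and filters, a replicate block and the 2 alpha-tubulins summed. Further ones left out each library or corrected for length. The length correction took a loess curve (span 0.3) out of each library as an offset in the edgeR fit. That curve was fitted to log2 level relative to each gene's mean over the libraries, against log2 longest transcript length.

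The genes and lists were chosen with earlier results of these data known. Named are the 8 matched genes, wit, list genes that passed or else had the smallest p of their list, and the 3 nearest profiles of each called gene. CG44195, Gr2a, Eb1, msps, shot, Patronin, alpha-Spec, beta-Spec, Ank, hts, kst, the markers and the long-transcript genes were named after their values were seen. The symbols of 4 folding cofactors differed from the table only in letter case.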

Additional observations from a re-analysis of the deposited data

How the results depend on the processing

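Calls on stai and Ank2 held in all 17 alternatives, and those on tau, Map205 and alphaTub84D were absent in all 17. For alphaTub84D 1 of these 17 is the value of the 2 alpha-tubulins summed, not of the gene alone. Of 306 gene-level values from the 18 genes followed, 0 changed sign. The summed value is among them for alphaTub84B and again for alphaTub84D. The number of genes of the set called lower, 3, ran from 2 to 4 over the alternatives. The count of higher genes, 0 with the settings used, was 1 (betaTub97EF) with totals not scaled by TMM and 1 with limma-voom, and ran from 0 to 1 when 1 library was left out. Over all genes, 562 higher became 963 with unscaled totals, 989 with limma-voom and 301 with the replicate block, and ran from 304 to 1060 without 1 library each, highest without mutant library 1. The 795 lower ranged from 524 to 1124 without 1 library, lowest without control library 2. The 3 list genes that rose became 6 with unscaled totals, 5 with limma-voom, 1 with no filter on low counts and 1 with the replicate block, and 0 to 4 without 1 library. The causes were not tested. Unscaled totals moved the median log2 fold change of all genes to 0.05. Same-numbered libraries did not deviate together (correlations of deviations -0.05, 0.04, -0.09 and -0.31). The labels do not say whether same-numbered libraries were paired, and so few correlations cannot settle it. With the replicate block futsch had -0.55 (adjusted p = 0.0954), alphaTub85E 0.84 (0.132), Tbcd 0.11 (0.0910) and sgg -0.11 (0.0650). The gene with the lowest level, betaTub97EF, had at least 437 estimated counts per library.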

Other observations

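Among the other genes with a longest annotated transcript of 15 kb or more, the calls were bt, poe, CG15465 and Ten-a, which were lower, and Strn-Mlck, which was higher. The gene poe went from 1425.5 ± 80.5 to 1091 ± 67.0 CPM (log2 fold change -0.39, SE 0.06, edgeR adjusted p = 0.000729), and Ten-a, a teneurin gene of synaptic partner matching, went from 876 ± 57.6 to 771 ± 36.1 CPM (-0.18, adjusted p = 0.0373). CG15465 had -0.32 and the muscle titin-family gene bt had -0.61, at 8.13 ± 1.05 CPM in controls. Strn-Mlck went from 42.7 ± 1.77 to 53.6 ± 1.55 CPM (0.33, adjusted p = 0.000252). The giant cytoskeletal linker genes shot and Msp300 had -0.06 and -0.34 without passing (adjusted p = 0.615 and 0.104). These genes were chosen after their values were seen.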
